A study of Homo sapiens with 36 samples.

Results

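The decapping and P-body genes described here are DCP1A, DCP1B, DCP2, EDC3, EDC4, XRN1, DDX6, LSM14A, PATL1 and PAN3. They were chosen by name, as 10 of the 60675 genes in the count table, with the symbol of each gene identifier taken from the authors' table of fold changes. All 10 were found there once. The libraries come from HEK293T, a human embryonic kidney line, in 3 versions labelled as expressing YTHDF1, YTHDF2 or YTHDF3 fused to the RNA-editing enzyme ADAR. All cells, including those that gave the inputs, received doxycycline at 1 ug/mL for 24 h to switch the fusion on. From each line the lysate was sampled as input, or incubated with an antibody to YTHDF1, YTHDF2 or YTHDF3 (RNA immunoprecipitation, RIP), and the RNA was sequenced after ribosomal RNA depletion. This gives 12 groups of 3 libraries, 36 in all. No line without a fusion, and no RIP with a control antibody, was analysed here. Whether a line is 1 clone, and whether replicates are separate cultures, is not given in the sources used here, so the p-values measure the spread between these libraries, which may be technical. The antibodies are labelled as directed to the endogenous proteins, and whether they also take up the fusion is not given either.

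The 10 genes encode proteins of the main route by which cytoplasmic mRNAs are destroyed. An mRNA first loses its poly(A) tail, then its 5′ cap, and is then digested from the 5′ end, and many of the proteins involved gather in cytoplasmic granules called P-bodies. DCP2 is the enzyme that cuts the cap, DCP1A and DCP1B are its activating partners, and EDC3 and EDC4 are enhancers of decapping, of which EDC4 serves as a scaffold. PATL1, LSM14A and the helicase DDX6 link repressed mRNAs to the decapping enzyme, PAN3 recruits the PAN2 deadenylase to mRNA, and XRN1 is the exonuclease that digests decapped RNA. The YTHDF proteins bind mRNAs that carry N6-methyladenosine, and YTHDF2 is known for bringing such mRNAs to deadenylation and decay. What was measured here is the messenger RNA of the 10 genes in the lysates and in the YTHDF RIPs, not their protein or their activity.

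Libraries held 12.5 to 37.5 M counted read pairs (median 28.1). In their composition 6 libraries, the YTHDF1 RIPs from the YTHDF2-ADAR and YTHDF3-ADAR lines, stood apart from the rest: protein-coding genes took 54.1 to 74.2% of their counts against 71.5 to 92.4%, small nucleolar RNAs 0.697 to 4.35% against at most 0.564%, and mitochondrially encoded mRNAs 3.15 to 8.58% against at most 3.06%. Olfactory receptor genes, which these cells should not express, summed to 31.9 to 53.3 CPM (counts scaled to the size of the library) in those 6 libraries and to at most 18.5 in the others. The part of these features in the YTHDF1 RIP values of YTHDF2-ADAR and YTHDF3-ADAR cells was not tested. All 7 HEK293T markers reached 1 CPM in some input, as did 1 of 4 blood markers (CD74, 6.9 to 12.1 CPM), 2 of 5 fibroblast markers (COL1A1, 13.8 to 30.2, and COL3A1, 0.505 to 1.36), 0 of 4 hepatocyte markers and 2 of 4 epithelial markers (CDH1, 3.05 to 6.63, and EPCAM, 0.924 to 1.98). PTPRC, HBB, COL1A2, SERPINA1 and KRT5 were at 0 in every input. In the inputs each YTHDF gene was highest in the line that carries its fusion, with YTHDF1 at 529 to 721 CPM against 85.6 to 98.5 elsewhere, YTHDF2 at 319 to 323 against 131 to 204, and YTHDF3 at 108 to 137 against 46.5 to 64.1. ADARB1, which encodes the editing enzyme ADAR2, was unequal between the inputs, at 2039 to 2152 CPM in the YTHDF3-ADAR line, 474 to 546 in the YTHDF1-ADAR line and only 55.9 to 59.8 in the YTHDF2-ADAR line. In the YTHDF2-ADAR line ADARB1 was at 149 to 213 CPM in YTHDF1 RIP, 80.2 to 86.1 in YTHDF2 RIP and 82.9 to 84.6 in YTHDF3 RIP. Without a line free of fusion the native ADARB1 level is not known. Whether the ADARB1 counts of the YTHDF2-ADAR line include the fusion was not tested. Which ADAR gene the fusions carry is not given in the sources used here. All 10 members passed the filter on low counts, with 134 reads in the lowest library (DCP1B) and 14031 in the highest (DCP2).

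In the inputs, levels per length were compared over the 9 libraries of the 3 lines, in TMM-scaled CPM per kilobase of exon (mean ± SD). DDX6 was highest, at 23.6 ± 4.55, followed by LSM14A at 21.4 ± 3.86, EDC4 at 18.5 ± 1.41, DCP2 at 17.4 ± 3.13, EDC3 at 17.2 ± 1.33, PATL1 at 14.6 ± 1.74 and DCP1A at 11.8 ± 1.27. PAN3 followed at 8.40 ± 0.814, XRN1 at 4.90 ± 0.765 and DCP1B at 3.01 ± 0.501. Each neighbouring pair in this order overlapped in its library values except PAN3 and XRN1. Of the pair of DCP1 genes, DCP1A was the higher, and its lowest input library lay above the highest of DCP1B. In these bulk lysates, fewer cells with a message and less of it per cell cannot be told apart.

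The genes lie on several chromosomes in build GRCh38, and counts cover all annotated exons, untranslated regions included. They are DCP2 (ENSG00000172795, chromosome 5, 112976702-113022195, plus strand), DCP1A (ENSG00000272886, chromosome 3, 53283429-53347586, minus strand), DCP1B (ENSG00000151065, chromosome 12, 1946053-2004535, minus strand), EDC3 (ENSG00000179151, chromosome 15, 74630558-74696292, minus strand) and EDC4 (ENSG00000038358, chromosome 16, 67873052-67884499, plus strand). The others are PATL1 (ENSG00000166889, chromosome 11, 59636716-59669037, minus strand), LSM14A (ENSG00000257103, chromosome 19, 34172504-34229515, plus strand), DDX6 (ENSG00000110367, chromosome 11, 118747763-118791164, minus strand), PAN3 (ENSG00000152520, chromosome 13, 28138506-28295335, plus strand) and XRN1 (ENSG00000114127, chromosome 3, 142306607-142448062, minus strand). The counting did not use strand and gave a read to each gene it overlaps, so reads from shared exonic bases count for both genes. EDC4 shares 21.3% of its exonic bases with a long noncoding gene on the same strand, and EDC3 shares 13.8% with the antisense gene CLK3. These overlapping genes held 32.1 and 76 CPM on average, beside 115 for EDC4 and 106 for EDC3. The share of EDC4 and EDC3 counts that comes from the other gene was not measured, so their values are uncertain. Overlaps of DCP2, DDX6 and PATL1 covered 0.445 to 1.48% of their exons.

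**Figure D1:**
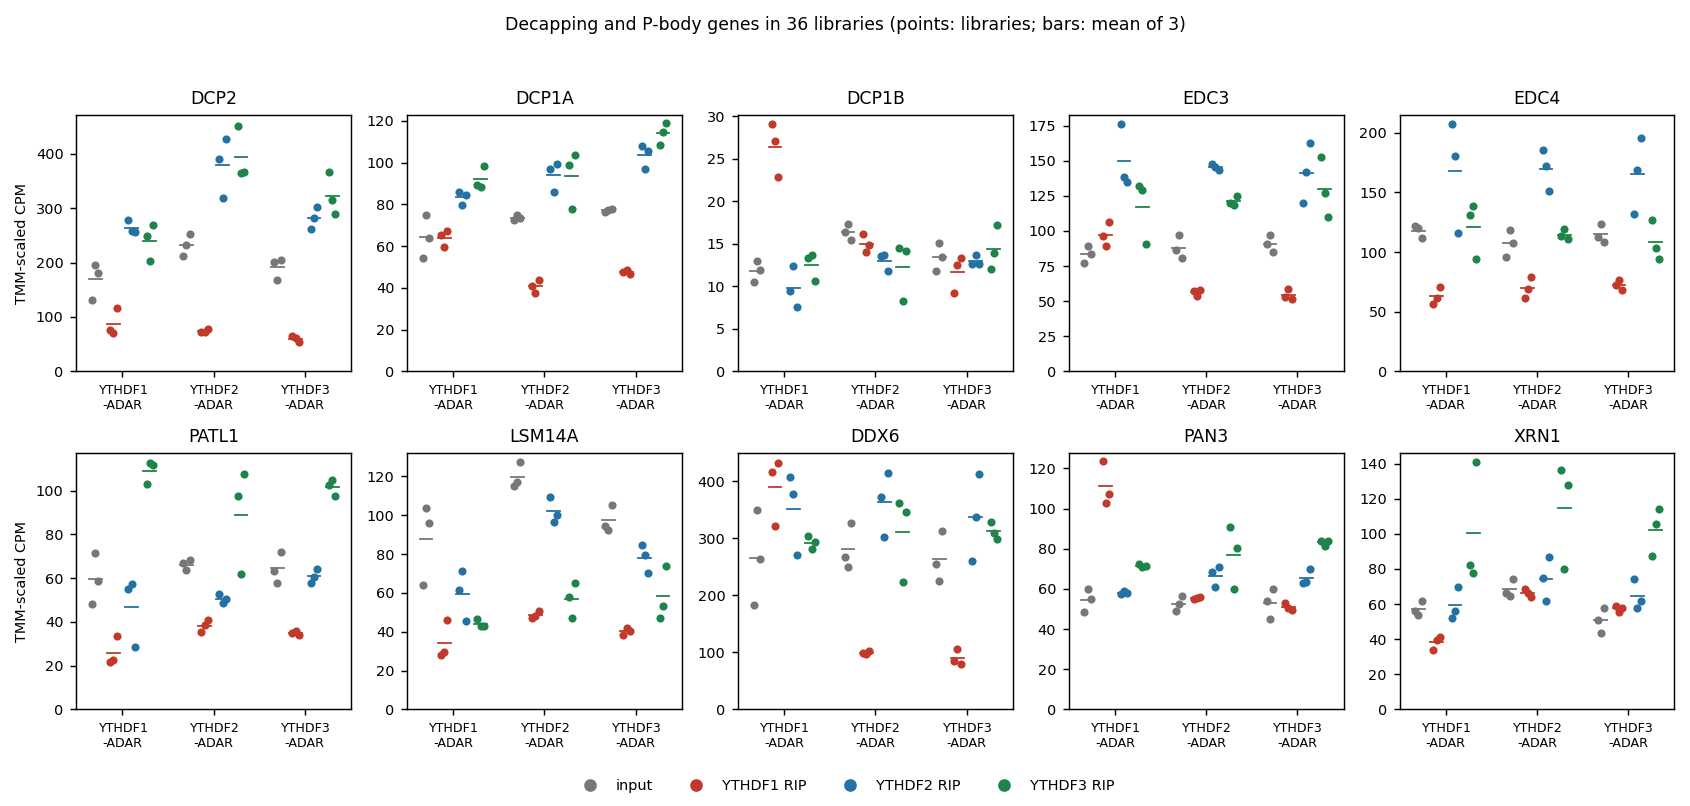
TMM-scaled CPM (vertical axis, from 0) of each decapping and P-body gene in the 36 libraries, by line (horizontal axis) and kind of library (colour); points are libraries and bars the mean of 3. DCP2 sits above its input in YTHDF2 and YTHDF3 RIP and below it in YTHDF1 RIP in each line, while DDX6 in YTHDF1 RIP is at 322 to 432 CPM in YTHDF1-ADAR cells and at 79.1 to 105 in the other lines.

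Whether messages of the decay machinery were themselves enriched in a YTHDF RIP was read against the input of the same line. The measure is a log2 fold change, where a positive value is higher in RIP. In YTHDF1-ADAR cells the YTHDF1 RIP split the genes: DCP1B, PAN3 and DDX6 were called higher and DCP2, EDC4, PATL1, LSM14A and XRN1 lower. Called means a Benjamini-Hochberg adjusted p under 0.05 over the 31849 genes tested, from edgeR's quasi-likelihood test. That is 3 of 10 higher and 5 lower, where 20.6% of all genes tested were called higher and 28.8% lower. Among protein-coding genes in the members' range of input CPM, 2977 were called higher, 4168 lower and 2244 were not called. In YTHDF2-ADAR and YTHDF3-ADAR cells, in the 6 libraries that stood apart, 0 members were called higher and the same count, 7, lower, against 41.8% and 33.4% of all genes in YTHDF2-ADAR cells and 40.8% and 32.4% in YTHDF3-ADAR cells. The members' median log2 fold change was -0.29, -0.71 and -0.72 in the YTHDF1-ADAR, then YTHDF2-ADAR, then YTHDF3-ADAR lines, beside -0.28, 0.20 and 0.21 over all genes. Over protein-coding genes alone, as the members are, the medians were -0.16, -0.48 and -0.45 in the same order of lines.

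In the YTHDF2 RIP, DCP1A, DCP2, EDC3 and EDC4 were called higher in each of the 3 lines. LSM14A was also called lower, in YTHDF1-ADAR cells. The counts were 4 higher and 1 lower in YTHDF1-ADAR cells (all genes 8.66% and 15.5%), 4 and 0 in YTHDF2-ADAR cells (10.2% and 10.1%) and 4 and 0 in YTHDF3-ADAR cells (8.98% and 9.93%). The members' median was 0.24, 0.35 and 0.35, beside -0.11, 0.019 and 0.00052 over all genes and -0.10, 0.063 and 0.059 over protein-coding genes. The YTHDF3 RIP held the most members called higher. DCP1A, DCP2, EDC3, XRN1 and PAN3 were higher in each line, PATL1 was higher in YTHDF1-ADAR and YTHDF3-ADAR cells, and LSM14A was lower in each line. This makes 6 higher and 1 lower in YTHDF1-ADAR cells (all genes 11.5% and 20.1%), 5 and 1 in YTHDF2-ADAR cells (15.2% and 16.9%) and 6 and 1 in YTHDF3-ADAR cells (13.5% and 16.1%). The median was 0.44, 0.38 and 0.54, beside -0.23, 0.090 and 0.0085 over all genes and -0.11, 0.032 and 0.043 over protein-coding genes.

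These fold changes are relative to the scaling. With total counts in place of TMM, the median of all genes moved from 0.20 to 0.72 for YTHDF1 RIP in YTHDF2-ADAR cells, where the split of the members became 3 higher and 4 lower and that of all genes 52.4% and 20.6%. With the 13 mitochondrially encoded mRNAs as the scale, it moved from -0.28 to -1.43 for YTHDF1 RIP in YTHDF1-ADAR cells, where 0 members were called higher and 6 lower (1.18% and 47.6% of all genes). On that scale 26 of the 55 calls of members against input held, and on the total-count scale 49. In YTHDF1 RIP on the mitochondrial scale, 0 members were higher and 7 lower in YTHDF2-ADAR cells (all genes 23.7% and 38%), and 0 and 10 in YTHDF3-ADAR cells (all genes 11.9% and 54%). In YTHDF2 RIP the members higher on that scale numbered 1, 0 and 0 in the YTHDF1-ADAR, then YTHDF2-ADAR, then YTHDF3-ADAR lines, and in YTHDF3 RIP 1, 5 and 1, with 0 lower. The shares of all genes called higher and lower on that scale were, in the same order of lines, 2.26% and 1.15%, 0.245% and 0.54%, then 0.00628% and 2.24% in YTHDF2 RIP and 2.71% and 3.36%, 17.2% and 2.36%, then 1.8% and 2.97% in YTHDF3 RIP. Of the 55 calls, 30 held in every alternative other than the mitochondrial scale, leaving out any single library included, and 18 held in all. Calls lost or gained without a single library are given below from fits with scaling and gene set recomputed. In those fits 35 of the 55 calls held without any single library, and 42 held when both were kept as in the full fit. The count of such losses thus differed with whether scaling and gene set were recomputed, and their cause was not tested. Losses seen only with both kept are not listed, and losses under the other settings are listed only in part. Other settings also added calls. With a model of only the 2 groups compared, the YTHDF2 RIP of YTHDF2-ADAR cells gave DCP1B (-0.36, adjusted p = 0.0289) and LSM14A (-0.26, adjusted p = 0.0391) as lower and DDX6 (0.34, adjusted p = 0.0404) and PAN3 (0.31, adjusted p = 0.019) as higher.

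**Figure D2:**
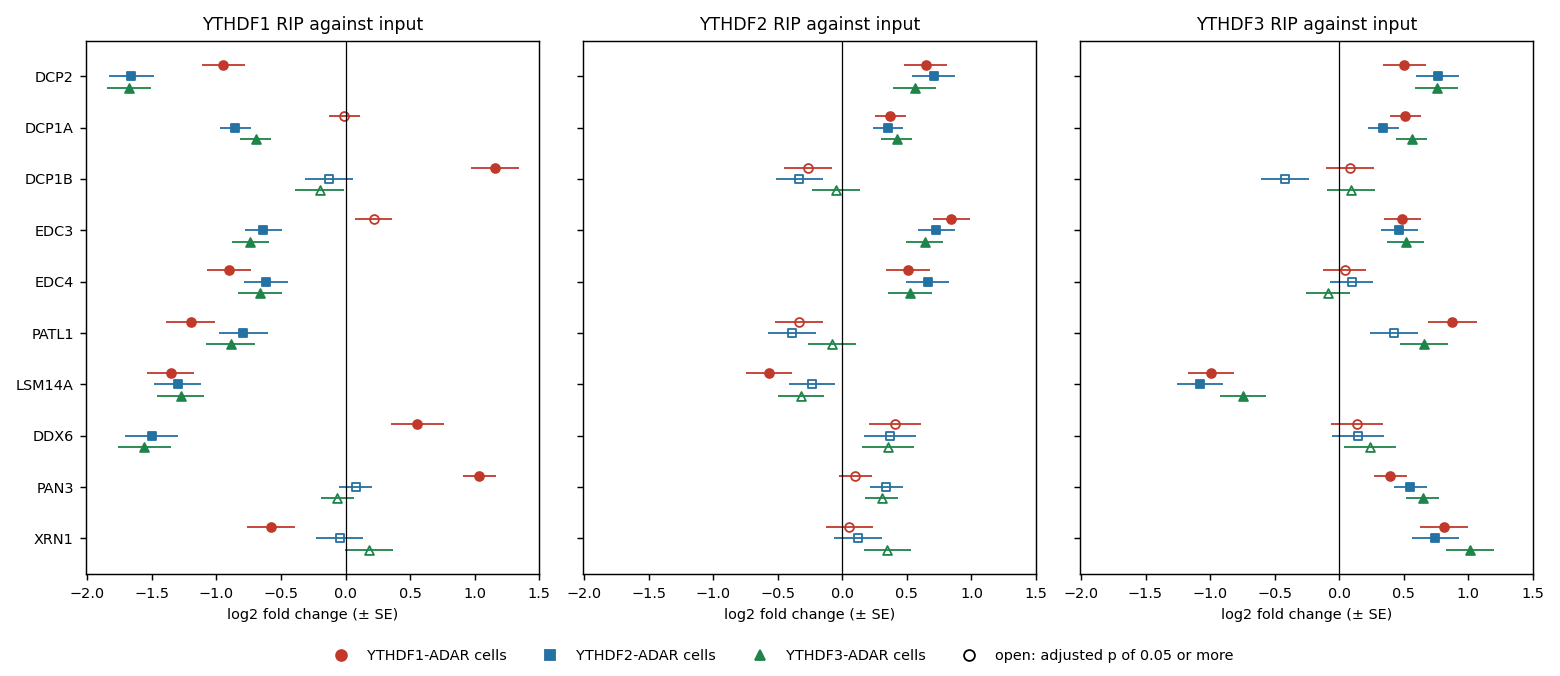
Log2 fold change of RIP over input (horizontal axis, ± SE from edgeR) for each gene in the 3 lines, with one panel per RIP; filled symbols have an adjusted p under 0.05 and open symbols 0.05 or more. The 3 lines lie close together in the YTHDF2 and YTHDF3 panels, and in the YTHDF1 panel the YTHDF1-ADAR symbols of DDX6, DCP1B, PAN3, DCP1A and EDC3 lie to the right of the others.

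DCP2, the decapping enzyme itself, was higher in the YTHDF2 and YTHDF3 RIPs and lower in the YTHDF1 RIP. In YTHDF1-ADAR cells its 3 inputs held 131, 195 and 181 CPM and its YTHDF1 RIP libraries 76.5, 70.2 and 116, while the YTHDF2 RIP held 278, 258 and 256 and the YTHDF3 RIP 248, 202 and 269. In YTHDF2-ADAR cells the inputs held 213, 232 and 252 CPM, the YTHDF1 RIP 71.5, 71.7 and 77.5, the YTHDF2 RIP 391, 319 and 428 and the YTHDF3 RIP 452, 364 and 366. In YTHDF3-ADAR cells the inputs held 202, 168 and 204 CPM, the YTHDF1 RIP 64.6, 61.3 and 53.7, the YTHDF2 RIP 261, 282 and 303 and the YTHDF3 RIP 366, 314 and 289. In each line the YTHDF1 RIP libraries lay below all inputs, and the libraries of the YTHDF2 and YTHDF3 RIPs above them. For YTHDF1 RIP the log2 fold change was -0.95 ± 0.17 (SE), adjusted p = 1.11e-05 in YTHDF1-ADAR cells, -1.66 ± 0.17 in YTHDF2-ADAR cells and -1.68 ± 0.17 in YTHDF3-ADAR cells. For YTHDF2 RIP it was 0.64 ± 0.17, 0.71 ± 0.17 and 0.56 ± 0.17 (adjusted p = 0.00339, 0.0019 and 0.0152), and for YTHDF3 RIP 0.50 ± 0.17, 0.76 ± 0.17 and 0.75 ± 0.17 (adjusted p = 0.0179, 0.000438 and 0.000525). The calls in YTHDF2 RIP were lost in YTHDF1-ADAR cells without input replicate 1 (0.46, adjusted p = 0.0555), in YTHDF2-ADAR cells without input replicate 1 (0.60, adjusted p = 0.055), and in YTHDF3-ADAR cells without YTHDF2 RIP replicate 3 or input replicate 1 or 2 or 3 (0.43 to 0.56, adjusted p = 0.063 to 0.19). With a model of only the 2 groups compared, the YTHDF2 RIP call of YTHDF1-ADAR cells was lost too (0.72, adjusted p = 0.0637). The YTHDF3 RIP call in YTHDF1-ADAR cells was lost without YTHDF3 RIP replicate 3 or input replicate 1 (0.38 to 0.49, adjusted p = 0.0703 to 0.114). The YTHDF1 RIP calls, and the YTHDF3 RIP call in YTHDF2-ADAR cells, held in all the alternatives.

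DCP1A and DCP1B, the activators of DCP2, parted from each other. DCP1A was somewhat higher in both the YTHDF2 and the YTHDF3 RIP. Its inputs in YTHDF3-ADAR cells held 76.4, 77.5 and 77.9 CPM, its YTHDF2 RIP 108, 97.0 and 106 and its YTHDF3 RIP 108, 115 and 119, with no overlap with the inputs. The log2 fold changes were 0.37 ± 0.12, 0.35 ± 0.12 and 0.42 ± 0.12 in YTHDF2 RIP and 0.51 ± 0.12, 0.34 ± 0.12 and 0.56 ± 0.12 in YTHDF3 RIP (YTHDF1-ADAR, then YTHDF2-ADAR, then YTHDF3-ADAR cells). These are among the smallest called differences: the YTHDF2 RIP calls were lost in YTHDF1-ADAR cells without YTHDF2 RIP replicate 1 or input replicate 1 (0.23 to 0.38, adjusted p = 0.0875 to 0.199), in YTHDF2-ADAR cells without YTHDF2 RIP replicate 1 or 3 or input replicate 1 or 2 or 3 (0.28 to 0.37, adjusted p = 0.0878 to 0.281), and in YTHDF3-ADAR cells without YTHDF2 RIP replicate 3 or input replicate 1 or 2 or 3 (0.36 to 0.41, adjusted p = 0.0542 to 0.148). In YTHDF2-ADAR cells they were also lost without the 6 libraries that stood apart (0.30, adjusted p = 0.121 for YTHDF2 RIP and 0.31, adjusted p = 0.0764 for YTHDF3 RIP). With another TMM reference library the YTHDF2 RIP call of YTHDF3-ADAR cells was lost (0.38, adjusted p = 0.056). The YTHDF3 RIP call of YTHDF2-ADAR cells was lost without YTHDF3 RIP replicate 1 or 2 or 3 or input replicate 1 or 2 or 3 (0.19 to 0.38, adjusted p = 0.0574 to 0.416), that is, in all 6 such fits. In YTHDF1 RIP, DCP1A held 65.2, 59.8 and 67.4 CPM in YTHDF1-ADAR cells beside inputs of 54.4, 75.1 and 64.0 (-0.0090 ± 0.12 (SE), adjusted p = 0.958). In YTHDF2-ADAR cells it held 40.8, 37.6 and 43.9 beside 72.7, 74.8 and 73.4 (-0.85 ± 0.12 (SE), adjusted p = 1.7e-07), and in YTHDF3-ADAR cells 47.6, 48.8 and 46.8 beside 76.4, 77.5 and 77.9 (-0.69 ± 0.12 (SE), adjusted p = 5.82e-06).

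DCP1B, the less abundant partner, had the highest YTHDF1 RIP fold change of the members in YTHDF1-ADAR cells. Its inputs held 10.5, 13.02 and 11.9 CPM, its YTHDF1 RIP 29.1, 27.1 and 22.9, its YTHDF2 RIP 9.47, 12.4 and 7.54 and its YTHDF3 RIP 13.3, 13.7 and 10.6. The YTHDF1 RIP libraries lay above all 9 others of that line. The log2 fold change in YTHDF1 RIP was 1.16 ± 0.19 (SE), adjusted p = 2.18e-06, and on the mitochondrial scale 0.12, adjusted p = 0.836. In the other lines the YTHDF1 RIP values overlapped the inputs, at 16.1, 14.0 and 14.9 beside 16.4, 17.4 and 15.4 CPM in YTHDF2-ADAR cells (-0.13 ± 0.19 (SE), adjusted p = 0.531) and 9.21, 12.5 and 13.4 beside 11.8, 15.1 and 13.5 in YTHDF3-ADAR cells (-0.20 ± 0.19 (SE), adjusted p = 0.341). The first was called lower without YTHDF1 RIP replicate 1 or input replicate 3 (-0.50 to -0.50, adjusted p = 0.0364 to 0.0432) and the second without YTHDF1 RIP replicate 2 or input replicate 1 or 3 (-0.51 to -0.61, adjusted p = 0.0141 to 0.0377). Both were also called lower with another TMM reference library (-0.43, adjusted p = 0.0416 and -0.50, adjusted p = 0.0212), and with total counts the first was called higher (0.40, adjusted p = 0.048). DCP1B was called in no YTHDF2 or YTHDF3 RIP, where its log2 fold changes lay between -0.42 and 0.093. With the replicate number as a block the lowest of these, YTHDF3 RIP in YTHDF2-ADAR cells, was called lower (-0.44, adjusted p = 0.0477), as it was without YTHDF3 RIP replicate 1 or 3 (-0.60 to -0.63, adjusted p = 0.0291 to 0.0379).

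EDC3, an enhancer of decapping, was higher in the YTHDF2 and YTHDF3 RIPs of each line. In YTHDF2-ADAR cells its inputs held 86.1, 97.0 and 80.4 CPM, its YTHDF2 RIP 147, 145 and 144 and its YTHDF3 RIP 120.2, 118 and 125. No library of either RIP overlapped the inputs of its line. The log2 fold changes were 0.84 ± 0.14, 0.73 ± 0.14 and 0.64 ± 0.14 in YTHDF2 RIP (adjusted p = 2.42e-05, 0.000261 and 0.00133) and 0.49 ± 0.14, 0.47 ± 0.14 and 0.52 ± 0.14 in YTHDF3 RIP (adjusted p = 0.00732, 0.0106 and 0.00493). The YTHDF2 RIP calls held without any single library. The YTHDF3 RIP calls were lost in YTHDF2-ADAR cells without YTHDF3 RIP replicate 1 or 2 or 3 or input replicate 1 or 3 (0.32 to 0.40, adjusted p = 0.0877 to 0.202) and in YTHDF3-ADAR cells without YTHDF3 RIP replicate 1 or 2 or input replicate 1 or 3 (0.33 to 0.47, adjusted p = 0.0501 to 0.169). In YTHDF1 RIP, EDC3 held 96.5, 89.0 and 106 CPM in YTHDF1-ADAR cells beside inputs of 77.4, 89.6 and 83.6 (0.22 ± 0.14 (SE), adjusted p = 0.211). This difference was called with DESeq2 (0.36, adjusted p = 0.0221), RLE scaling (0.36, adjusted p = 0.0316) and total counts (0.38, adjusted p = 0.0166), and on the mitochondrial scale it had the other sign (-0.86, adjusted p = 0.0813). In YTHDF2-ADAR and YTHDF3-ADAR cells the YTHDF1 RIP held 57.5, 53.9 and 58.2 CPM and 52.9, 59.0 and 51.9, below all inputs, at -0.64 ± 0.14 (SE), adjusted p = 0.000202 and -0.74 ± 0.14 (SE), adjusted p = 3.39e-05. The first of these was not called with total counts (-0.11, adjusted p = 0.48).

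EDC4, the scaffold that brings DCP1 and DCP2 together, was called higher in the YTHDF2 RIP and lower in the YTHDF1 RIP of each line, and was called in no YTHDF3 RIP. In YTHDF2-ADAR cells its inputs held 96.0, 118 and 108 CPM, its YTHDF1 RIP 61.3, 69.0 and 79.4, its YTHDF2 RIP 185, 172 and 151 and its YTHDF3 RIP 113, 119 and 111. In YTHDF1-ADAR cells 1 of the YTHDF2 RIP libraries (207, 181 and 116 CPM) fell among the inputs (122, 120.0 and 112). The YTHDF2 RIP log2 fold changes were 0.51 ± 0.17, 0.66 ± 0.17 and 0.52 ± 0.17 (adjusted p = 0.0234, 0.00417 and 0.0253). These calls were lost in YTHDF1-ADAR cells without YTHDF2 RIP replicate 1 or 2 or input replicate 2 (0.39 to 0.53, adjusted p = 0.0529 to 0.162), in YTHDF2-ADAR cells without input replicate 1 (0.53, adjusted p = 0.073), and in YTHDF3-ADAR cells without YTHDF2 RIP replicate 2 or 3 or input replicate 1 or 2 or 3 (0.40 to 0.53, adjusted p = 0.0571 to 0.178). The YTHDF2 RIP call of YTHDF1-ADAR cells was also lost in a model of only the 2 groups compared (0.58, adjusted p = 0.108). That of YTHDF3-ADAR cells was lost with another TMM reference library (0.48, adjusted p = 0.0549). The YTHDF3 RIP values were 0.041 ± 0.17, 0.10 ± 0.17 and -0.088 ± 0.17, none of them called. In YTHDF1 RIP the values were -0.90 ± 0.17, -0.62 ± 0.17 and -0.66 ± 0.17 (adjusted p = 2.86e-05, 0.00163 and 0.000843), with no overlap with the inputs, and with total counts the last 2 were not called (-0.092, adjusted p = 0.602 and -0.33, adjusted p = 0.0567).

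PATL1, a scaffold that joins the LSM1-7 ring to DDX6 and DCP2, had its highest level in the YTHDF3 RIP and its lowest in the YTHDF1 RIP. In YTHDF1-ADAR cells its inputs held 48.2, 71.3 and 58.8 CPM, its YTHDF1 RIP 21.5, 22.8 and 33.4, its YTHDF2 RIP 55.0, 57.5 and 28.5 and its YTHDF3 RIP 103, 113 and 112. In YTHDF3-ADAR cells the inputs held 63.3, 58.0 and 72.2 CPM, the YTHDF1 RIP 34.8, 35.8 and 33.9, the YTHDF2 RIP 57.8, 60.7 and 64.2 and the YTHDF3 RIP 103, 105 and 97.7. In YTHDF2-ADAR cells 1 YTHDF3 RIP library lay below the inputs, with 97.4, 62.0 and 108 CPM beside 66.8, 63.6 and 68.3. The YTHDF3 RIP log2 fold changes were 0.88 ± 0.19 (SE), adjusted p = 0.00032 in YTHDF1-ADAR cells, 0.43 ± 0.19 (SE), adjusted p = 0.0797 in YTHDF2-ADAR cells and 0.66 ± 0.19 (SE), adjusted p = 0.00608 in YTHDF3-ADAR cells. The YTHDF2-ADAR value was called without YTHDF3 RIP replicate 2 (0.55, adjusted p = 0.0464) and with total counts (0.70, adjusted p = 0.00059), and the YTHDF3-ADAR call was lost without YTHDF3 RIP replicate 2 or input replicate 1 or 2 (0.54 to 0.59, adjusted p = 0.0616 to 0.0887). The YTHDF1-ADAR call held in all the alternatives. In YTHDF2 RIP, PATL1 was called in no line (-0.34 ± 0.19, -0.39 ± 0.19 and -0.083 ± 0.19). The YTHDF2-ADAR value was called lower in a model of those 2 groups alone (-0.42, adjusted p = 0.00212) and without YTHDF1-ADAR input replicate 1 and YTHDF2 RIP replicate 3 together (-0.44, adjusted p = 0.0234). In YTHDF1 RIP it was lower in each line, at -1.20 ± 0.19, -0.79 ± 0.19 and -0.89 ± 0.19 (adjusted p = 1.77e-06, 0.000366 and 0.000109), with no overlap, though not called in YTHDF2-ADAR cells with total counts (-0.27, adjusted p = 0.129).

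LSM14A, a partner of DDX6 needed for P-body assembly, was lower in the YTHDF1 and YTHDF3 RIPs of each line. In YTHDF2-ADAR cells its inputs held 115, 117 and 127 CPM, its YTHDF1 RIP 47.2, 48.3 and 50.5, its YTHDF2 RIP 109, 96.4 and 99.9 and its YTHDF3 RIP 57.9, 47.0 and 65.3. All YTHDF1 and YTHDF3 RIP libraries lay below the inputs of their line. In YTHDF1 RIP the log2 fold changes were -1.35 ± 0.18, -1.30 ± 0.18 and -1.28 ± 0.18 (adjusted p = 7.79e-08, 1.28e-07 and 2.12e-07). In YTHDF3 RIP they were -0.99 ± 0.18, -1.08 ± 0.18 and -0.74 ± 0.18 (adjusted p = 3.35e-05, 1.05e-05 and 0.0013), and on the mitochondrial scale none of these 3 was called (adjusted p = 0.6, 0.502 and 0.555). In YTHDF2 RIP the values were -0.57 ± 0.18, -0.23 ± 0.18 and -0.32 ± 0.18. The first was called lower (adjusted p = 0.017), and this call was lost without YTHDF2 RIP replicate 1 or 3 or input replicate 2 or 3 (-0.35 to -0.56, adjusted p = 0.0741 to 0.234), and without the 6 libraries that stood apart (-0.48, adjusted p = 0.0645).

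DDX6, the helicase that represses translation and promotes decapping, gave the widest contrast between lines. In YTHDF1-ADAR cells the YTHDF1 RIP held 417, 322 and 432 CPM beside inputs of 183, 350.2 and 263. In YTHDF2-ADAR cells it held 98.3, 96.3 and 103 beside 268, 249 and 326, and in YTHDF3-ADAR cells 84.2, 105 and 79.1 beside 254, 225 and 312. The first pair of groups overlapped and the others did not. The log2 fold changes were 0.56 ± 0.20 (SE), adjusted p = 0.0214 in YTHDF1-ADAR cells, -1.50 ± 0.21 (SE), adjusted p = 1.01e-07 in YTHDF2-ADAR cells and -1.56 ± 0.21 (SE), adjusted p = 6.07e-08 in YTHDF3-ADAR cells. The call in YTHDF1-ADAR cells was lost without YTHDF1 RIP replicate 1 or 3 or input replicate 1 (0.31 to 0.52, adjusted p = 0.0828 to 0.244), and on the mitochondrial scale the value had the other sign (-0.41, adjusted p = 0.405). That call was also lost in a model of only the 2 groups compared (0.65, adjusted p = 0.0809). Both calls in the libraries that stood apart held in all the alternatives. In YTHDF2 RIP the values were 0.41 ± 0.20, 0.37 ± 0.20 and 0.35 ± 0.20 (adjusted p = 0.158, 0.217 and 0.252), and with total counts all 3 were called higher (adjusted p = 0.0099, 0.0222 and 0.0281). In YTHDF1-ADAR cells it was called too without YTHDF2 RIP replicate 3 or input replicate 2 (0.62 to 0.66, adjusted p = 0.0269 to 0.0471) and with DESeq2 (0.51, adjusted p = 0.0498). In YTHDF3 RIP they were 0.14 ± 0.20, 0.14 ± 0.20 and 0.24 ± 0.20, none called, though with total counts the last was called higher (0.48, adjusted p = 0.0417). The pseudogenes DDX6P1 and DDX6P2 held 0.0532 and 0.0377 CPM on average.

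PAN3, which tethers the PAN2 deadenylase to mRNA, was higher in the YTHDF1 RIP of YTHDF1-ADAR cells and in the YTHDF3 RIP of each line. In YTHDF1-ADAR cells its inputs held 48.3, 59.8 and 54.8 CPM, its YTHDF1 RIP 124, 103 and 107, its YTHDF2 RIP 57.5, 58.8 and 58.1 and its YTHDF3 RIP 72.1, 70.7 and 71.3. The YTHDF1 RIP libraries lay above all others of that line, and the YTHDF3 RIP libraries above the inputs. In the libraries that stood apart the YTHDF1 RIP held 55.1, 55.7 and 56.1 CPM in YTHDF2-ADAR cells beside inputs of 48.8, 52.7 and 56.5, and 52.7, 50.4 and 49.3 in YTHDF3-ADAR cells beside 54.1, 45.1 and 60.1. The log2 fold changes in YTHDF1 RIP were 1.04 ± 0.13 (SE), adjusted p = 1.67e-08 in YTHDF1-ADAR cells, 0.079 ± 0.13 (SE), adjusted p = 0.582 in YTHDF2-ADAR and -0.064 ± 0.13 (SE), adjusted p = 0.662 in YTHDF3-ADAR cells. On the mitochondrial scale the first was -0.027, adjusted p = 0.962. With total counts the second was called higher (0.60, adjusted p = 0.000141), and with another TMM reference the third was called lower (-0.37, adjusted p = 0.0209), as it was without YTHDF1 RIP replicate 2 or input replicate 1 or 2 (-0.37 to -0.49, adjusted p = 0.00684 to 0.0427). In YTHDF3 RIP the values were 0.40 ± 0.13, 0.55 ± 0.13 and 0.65 ± 0.13 (adjusted p = 0.0153, 0.000849 and 0.000129). The first was lost without input replicate 1 (0.35, adjusted p = 0.0627) and the second without YTHDF3 RIP replicate 1 or input replicate 1 (0.34 to 0.43, adjusted p = 0.0536 to 0.109). In YTHDF2 RIP PAN3 was at 0.10 ± 0.13, 0.34 ± 0.13 and 0.30 ± 0.13 (adjusted p = 0.666, 0.0553 and 0.0958). The YTHDF2-ADAR value was called without YTHDF2 RIP replicate 2 (0.44, adjusted p = 0.0465), and with total counts both the YTHDF2-ADAR and the YTHDF3-ADAR value were (adjusted p = 0.00216 and 0.00414).

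XRN1, the exonuclease at the end of the route, was higher in the YTHDF3 RIP of each line. Its inputs held 55.8, 53.7 and 61.7 CPM in YTHDF1-ADAR cells, 66.3, 64.7 and 74.1 in YTHDF2-ADAR and 50.8, 43.3 and 57.8 in YTHDF3-ADAR cells. The YTHDF3 RIP held 82.4, 77.5 and 141 CPM in YTHDF1-ADAR, 136, 80.0 and 128 in YTHDF2-ADAR, and 87.3, 106 and 114 in the YTHDF3-ADAR line. These lay above all inputs of their line, with 1 library in YTHDF1-ADAR cells well above and 1 in YTHDF2-ADAR cells well below the others. The log2 fold changes were 0.81 ± 0.18, 0.75 ± 0.18 and 1.01 ± 0.18 (adjusted p = 0.000629, 0.00155 and 4.24e-05). The second was lost without YTHDF3 RIP replicate 1 (0.53, adjusted p = 0.0584), and the third held in all the alternatives. In YTHDF2 RIP XRN1 was not called (0.054 ± 0.18, 0.12 ± 0.18 and 0.35 ± 0.18), though with total counts the last was called higher (0.55, adjusted p = 0.0467). In YTHDF1 RIP it held 34.1, 39.3 and 41.2 CPM in YTHDF1-ADAR cells, below all inputs (-0.58 ± 0.18 (SE), adjusted p = 0.0087). That call was lost without YTHDF1 RIP replicate 1 or input replicate 3 (-0.42 to -0.46, adjusted p = 0.0858 to 0.101), with RLE scaling (-0.43, adjusted p = 0.0562), with DESeq2 (-0.43, adjusted p = 0.0617), with total counts (-0.42, adjusted p = 0.0947) and with a model of those 2 groups alone (-0.46, adjusted p = 0.0552). The YTHDF1 RIP held 68.4, 66.3 and 63.8 CPM in YTHDF2-ADAR cells (-0.047 ± 0.18) and 59.0, 55.7 and 57.7 in the YTHDF3-ADAR line (0.18 ± 0.18), where neither was called. With total counts both were called higher (0.47, adjusted p = 0.0372 and 0.52, adjusted p = 0.0252). The second was also called higher in a model of those 2 groups alone (0.25, adjusted p = 0.0443) and was called lower on the mitochondrial scale (-1.39, adjusted p = 0.00309).

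**Figure D3:**
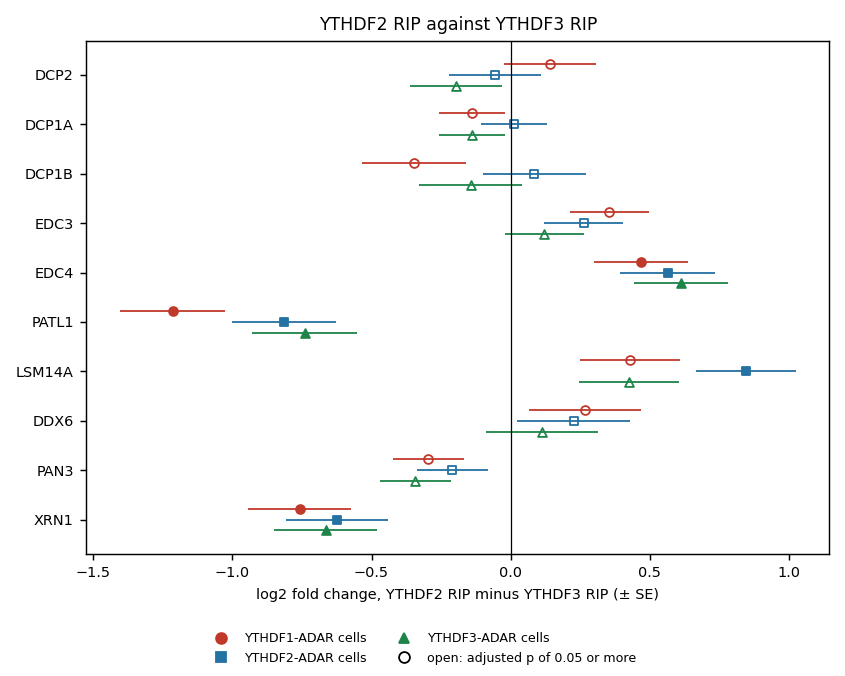
Log2 fold change of YTHDF2 RIP over YTHDF3 RIP (horizontal axis, ± SE from edgeR) for each gene in the 3 lines; filled symbols have an adjusted p under 0.05. PATL1 and XRN1 lie to the left (higher in YTHDF3 RIP) and EDC4 to the right (higher in YTHDF2 RIP) in each line.

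The YTHDF2 and YTHDF3 RIPs of a line were compared with each other directly, to ask which messages differed in level between these RIPs. PATL1 and XRN1 were lower in YTHDF2 than in YTHDF3 RIP in each line, and EDC4 higher. LSM14A was higher in YTHDF2 RIP in YTHDF2-ADAR cells. Called members numbered 1 higher and 2 lower in YTHDF1-ADAR cells (all genes 10.7% and 8.51%), 2 and 2 in YTHDF2-ADAR cells (12.1% and 8.33%), and 1 and 2 in YTHDF3-ADAR cells (9.01% and 5.74%). For PATL1 the log2 fold change was -1.21 ± 0.19, -0.82 ± 0.19 and -0.74 ± 0.19 (adjusted p = 9.58e-06, 0.0015 and 0.00544), with every YTHDF2 RIP library below the YTHDF3 RIP libraries of its line. The last was lost without YTHDF3 RIP replicate 2 (-0.70, adjusted p = 0.0502). For XRN1 it was -0.76 ± 0.18, -0.63 ± 0.18 and -0.67 ± 0.18 (adjusted p = 0.00253, 0.0122 and 0.011), and libraries overlapped in YTHDF2-ADAR cells. The XRN1 calls were lost in YTHDF1-ADAR cells without YTHDF3 RIP replicate 3 (-0.48, adjusted p = 0.0811), in YTHDF2-ADAR cells without YTHDF2 RIP replicate 2 or YTHDF3 RIP replicate 1 or 3 (-0.46 to -0.61, adjusted p = 0.054 to 0.147), and in YTHDF3-ADAR cells without YTHDF3 RIP replicate 2 or 3 (-0.59 to -0.62, adjusted p = 0.063 to 0.0671).

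For EDC4 the difference was 0.47 ± 0.17, 0.56 ± 0.17 and 0.61 ± 0.17 (adjusted p = 0.0463, 0.0144 and 0.0113), with overlap in YTHDF1-ADAR cells. It was the least stable of the 3: the calls were lost in YTHDF1-ADAR cells without YTHDF2 RIP replicate 1 or 2 or YTHDF3 RIP replicate 1 or 2 or 3 (0.22 to 0.50, adjusted p = 0.0507 to 0.476), in YTHDF2-ADAR cells without YTHDF2 RIP replicate 1 or 2 or YTHDF3 RIP replicate 1 or 3 (0.40 to 0.57, adjusted p = 0.0553 to 0.141), and in YTHDF3-ADAR cells without YTHDF2 RIP replicate 2 or 3 or YTHDF3 RIP replicate 2 or 3 (0.37 to 0.59, adjusted p = 0.0691 to 0.183). In YTHDF1-ADAR cells it was also lost without the 6 libraries that stood apart (0.38, adjusted p = 0.113) and with the replicate number as a block (0.46, adjusted p = 0.0636). For LSM14A the difference was 0.85 ± 0.18 (SE), adjusted p = 0.000619 in YTHDF2-ADAR cells, and 0.43 ± 0.18 (SE), adjusted p = 0.0913 and 0.43 ± 0.18 (SE), adjusted p = 0.111 in YTHDF1-ADAR and YTHDF3-ADAR cells. On the mitochondrial scale 0 members were called between the YTHDF2 and YTHDF3 RIPs in any line, and EDC4 in YTHDF3-ADAR cells took the other sign (-0.035, adjusted p = 0.982). DCP2, DCP1A, DCP1B, EDC3, DDX6 and PAN3 were called in no line. The 95% intervals of DCP2, in YTHDF1-ADAR, then YTHDF2-ADAR, then YTHDF3-ADAR cells, were -0.19 to 0.47, -0.38 to 0.27 and -0.52 to 0.13.

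In YTHDF1-ADAR cells, where the YTHDF1 RIP libraries did not stand apart, the YTHDF1 RIP was also compared with the other RIPs. Both comparisons share the YTHDF1 RIP libraries, so their values are given side by side. Against YTHDF2 RIP, DCP1B (1.42 ± 0.19 (SE), adjusted p = 1.1e-07) and PAN3 (0.94 ± 0.13 (SE), adjusted p = 2.19e-07) were higher. DCP2 (-1.59 ± 0.17), EDC4 (-1.41 ± 0.17), PATL1 (-0.86 ± 0.19), LSM14A (-0.79 ± 0.18), XRN1 (-0.63 ± 0.18), EDC3 (-0.62 ± 0.14) and DCP1A (-0.38 ± 0.12) were lower, with adjusted p between 1.75e-09 and 0.00985. That is 2 higher and 7 lower of 10, against 20.3% and 18.8% of all genes. The DCP1A call was lost without YTHDF1 RIP replicate 2 or YTHDF2 RIP replicate 1 (-0.34 to -0.36, adjusted p = 0.0748 to 0.0973). Against YTHDF3 RIP, DCP1B (1.07 ± 0.18) and PAN3 (0.64 ± 0.13) were again higher, and PATL1 (-2.08 ± 0.19), DCP2 (-1.45 ± 0.17), XRN1 (-1.39 ± 0.19), EDC4 (-0.94 ± 0.17) and DCP1A (-0.52 ± 0.12) lower, 2 and 5 of 10 against 22.4% and 18.7%. On the mitochondrial scale DCP1B and PAN3 took the other sign in both comparisons, at -0.13, adjusted p = 0.801 and -0.74, adjusted p = 0.108 against YTHDF2 RIP and -0.41, adjusted p = 0.428 and -0.87, adjusted p = 0.0713 against YTHDF3 RIP. DDX6 was not called, at 0.15 ± 0.20 (SE), adjusted p = 0.602 and 0.42 ± 0.20 (SE), adjusted p = 0.0989.

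An interaction term with 2 degrees of freedom tested, for each RIP, whether the enrichment of a message differed between the 3 lines. For YTHDF1 RIP it was called for 7 of 10 members, DDX6, PAN3, DCP1B, DCP1A, EDC3, DCP2 and XRN1, where 63.7% of all genes were called. XRN1 was the least firm of them with scaling and gene set recomputed: its call was lost in 16 of the 18 fits that left out 1 library of these groups (adjusted p up to 0.643). With both kept, 5 losses were seen in total, counted over the 7 members and all such fits. With total counts DCP2 was lost (adjusted p = 0.0727) and EDC4 and PATL1 were called (adjusted p = 0.0278 and 0.0127). For DDX6 the enrichment in YTHDF1-ADAR cells exceeded that in YTHDF2-ADAR cells by 2.06 ± 0.29 (SE), adjusted p = 2.08e-07, and that in YTHDF3-ADAR cells by 2.11 ± 0.29 (SE), adjusted p = 1.53e-07. For PAN3 these differences were 0.96 and 1.10, for DCP1B 1.29 and 1.36, for EDC3 0.86 and 0.96, for DCP1A 0.84 and 0.69, and for DCP2 0.71 and 0.73, each past the test. XRN1 alone of the 7 had the other sign, at -0.53 ± 0.26 (SE), adjusted p = 0.0713, and -0.76 ± 0.26 (SE), adjusted p = 0.0117. Over all genes 65% and 62.7% were called in these contrasts. For LSM14A, PATL1 and EDC4 no difference was called (adjusted p = 0.961, 0.361 and 0.52), and the LSM14A difference between YTHDF1-ADAR and YTHDF2-ADAR cells had a 95% interval of -0.55 to 0.44. The lines and the libraries that stood apart coincide here, so line and library composition cannot be told apart.

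For YTHDF2 RIP and YTHDF3 RIP, edgeR called a difference between lines for 0 of 10 members (adjusted p from 0.997 to 1; 0% and 0.00628% of all genes). No member had an unadjusted p under 0.05 there either, and no other tool was run on the interaction. Between YTHDF2-ADAR and YTHDF3-ADAR cells no member was called in any RIP (all genes 0.00628%, 0% and 0.00314% in YTHDF1, YTHDF2 and YTHDF3 RIP). The widest 95% intervals of that difference reached -0.74 (XRN1) and 0.62 (DDX6) in YTHDF1 RIP, -0.82 (PATL1) and 0.61 (DCP2) in YTHDF2 RIP, and -1.02 (DCP1B) and 0.65 (EDC4) in YTHDF3 RIP, so the intervals of those genes take in differences up to these bounds.

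In the inputs themselves edgeR called 0 members between any 2 lines. The share of all genes called higher and lower was 13.3% and 4.3% for YTHDF1-ADAR against YTHDF2-ADAR, 11.3% and 5.1% against YTHDF3-ADAR, and 1.27% and 2.15% for YTHDF2-ADAR against YTHDF3-ADAR. At an unadjusted p under 0.05 there were 3 members (DCP1B, DCP2 and LSM14A), 1 (DCP1A) and 1 (XRN1). DESeq2 called 3, 0 and 0. The 3 are DCP1B (-0.47 ± 0.19 (SE), adjusted p = 0.072 in edgeR), DCP2 (-0.46 ± 0.17 (SE), adjusted p = 0.0512) and LSM14A (-0.45 ± 0.18 (SE), adjusted p = 0.0754), each lower in YTHDF1-ADAR inputs with no overlap. They were also called with RLE scaling, another TMM reference, no filter on low counts, and without the 6 libraries that stood apart. Their adjusted p were 0.0355, 0.0219 and 0.0379 with DESeq2 and 0.0243, 0.0252 and 0.0348 without those libraries. They were called too without YTHDF1-ADAR input replicate 3 (adjusted p = 0.0312, 0.0203 and 0.0259). Without YTHDF1-ADAR input replicate 2, DCP2 and LSM14A were called, and DCP1A against YTHDF3-ADAR inputs (-0.39, adjusted p = 0.039). Without YTHDF2-ADAR input replicate 1 DCP2 was called (adjusted p = 0.0499), and without its replicate 3 DCP1B (adjusted p = 0.0432). On the mitochondrial scale EDC4 was called higher in YTHDF1-ADAR inputs (1.12, adjusted p = 0.0332).

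The authors' deposited table compares each RIP with input by gene without naming a line. DCP2 had in the authors' deposited table log2 fold changes of -1.65, 0.74 and 0.77 for YTHDF1, YTHDF2 and YTHDF3. There, in the authors' deposited table, DDX6 had -0.64 for YTHDF1 (the authors' adjusted p = 0.104) and PAN3 0.25 (the authors' adjusted p = 0.413). Both values of the authors' deposited table lie between the YTHDF1-ADAR value and those of the other lines given above. In the authors' deposited table the YTHDF1 values of DCP1A, DCP1B, DCP2, EDC3 and XRN1 also lay within the range of the lines. Those of LSM14A (-1.57), EDC4 (-0.97) and PATL1 (-1.21) in the authors' deposited table lay below the value of each line.

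The members' profiles over the 12 groups were compared by Pearson r of mean log2 CPM, as a description, since the 12 points share lines, inputs and scaling. DCP1A was most like EDC3 (r = 0.916), DCP2 most like DCP1A (0.908), and DDX6 most like EDC3 (0.878). EDC4 was most like DCP2 (0.84), XRN1 and PATL1 most like each other (0.816), DCP1B and PAN3 most like each other (0.606), and LSM14A most like EDC4 (0.616). The lowest pair was DCP1B and EDC4 (-0.607). Among 9076 other genes with a mean log2 CPM of at least 4, those most like the members' mean profile were IPO5 (r = 0.993), DHX40 (0.986), MTMR1 (0.985), NCAPD2 (0.984) and SPTLC2 (0.984).

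Other genes of the pathway were read in the same fit, as counts of calls. The LSM1-7 ring binds shortened tails and hands mRNA to decapping. Its 7 genes had 0 called higher in any of the 9 RIP comparisons with input, and 4 to 6 called lower, beside 8.66 to 41.8% and 9.93 to 33.4% of all genes, with medians from -1.60 to -0.83. LSM2 was at -2.52 ± 0.24 in YTHDF1 RIP of YTHDF1-ADAR cells, -1.40 ± 0.22 in YTHDF2 RIP and -2.62 ± 0.24 in YTHDF3 RIP of YTHDF2-ADAR cells. LSM5 was at -2.51 ± 0.23 in the first, and LSM1 at -1.03 ± 0.16 and -1.49 ± 0.16 in the others. Of 13 decapping partners and cap enzymes tested, 2 higher and 7 lower were called in YTHDF1 RIP of YTHDF1-ADAR cells (all genes 20.6% and 28.8%), 4 higher and 2 lower in YTHDF2 RIP (all genes 10.2% and 10.1%) and 3 higher and 5 lower in YTHDF3 RIP of YTHDF2-ADAR cells (all genes 15.2% and 16.9%). PNRC2, a bridge between nonsense-mediated decay and DCP1A, was at -2.20 ± 0.23, -1.38 ± 0.22 and -1.88 ± 0.22. NBDY, a P-body microprotein that binds EDC4, was at -1.75 ± 0.22 in the first and -1.76 ± 0.21 in the last, and LSM14B at 0.80 ± 0.12 in the second.

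Of 17 RNA-binding activators of decay, 7 higher and 6 lower were called in YTHDF1 RIP of YTHDF1-ADAR cells (all genes 20.6% and 28.8%), 3 higher and 0 lower in YTHDF2 RIP (all genes 10.2% and 10.1%) and 7 higher and 1 lower in YTHDF3 RIP of YTHDF2-ADAR cells (all genes 15.2% and 16.9%). MEX3C, an RNA-binding ubiquitin ligase, was at 1.26 ± 0.15 and ZFP36L2, which binds AU-rich elements, at 1.15 ± 0.18 in YTHDF1 RIP. UPF1, the helicase of nonsense-mediated decay, was at 0.87 ± 0.14 in YTHDF2 RIP. RC3H2 was at 1.06 ± 0.15 and MEX3A at 1.15 ± 0.16 in YTHDF3 RIP. The last list, with 17 genes tested, was drawn for the opposite, 3′ to 5′ route through the exosome and the SKI complex. It also held DIS3L2, which is not an exosome subunit, and XRN2, a 5′ to 3′ exonuclease. In this list 2 higher and 12 lower, 2 higher and 2 lower and 2 higher and 6 lower were called in the same 3 comparisons, beside those same shares of all genes. The named ones were WDR61 (-1.63 ± 0.18) and EXOSC8 (-1.73 ± 0.19) in the first, EXOSC1 (-1.01 ± 0.20) and EXOSC8 (-0.85 ± 0.19) in the second, and EXOSC1 (-1.44 ± 0.20) and WDR61 (-1.18 ± 0.17) in the last. Each pathway gene given a value here or with the LSM1-7 ring passed the test in the comparison given. These genes were named for the smallest p in their list, so their passing says nothing about the rest of the list.

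**Figure D4:**
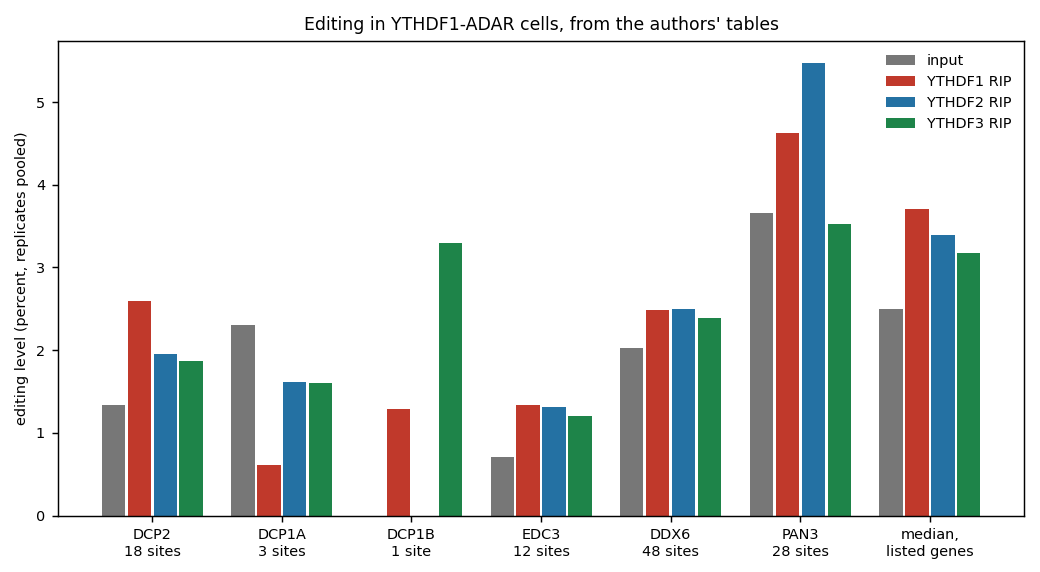
Editing level in percent (vertical axis, bars from 0, replicates pooled by the authors) of the 6 listed members in YTHDF1-ADAR cells, by kind of library (colour), with the median over the 7800 genes that have a value in each kind at the right. PAN3 reaches 5.47% in YTHDF2 RIP and DCP2, EDC3 and DDX6 lie at or below 2.60%; the missing bars of DCP1B are values of 0.

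The fused ADAR changes A to I in RNAs it reaches, so editing can give a second readout of contact with the fusion. No line without a fusion was analysed here, so editing by the fusion and by the cells' own ADAR enzymes cannot be told apart. The authors' tables list genes with editing sites per line and pool the replicates, so the values have no replicate error, and the read depth behind them is unknown. An editing level here is the authors' summed score of a gene divided by its number of sites, in percent. In YTHDF1-ADAR cells 6 members were listed: DDX6 with 48 sites, PAN3 with 28, DCP2 with 18, EDC3 with 12, DCP1A with 3 and DCP1B with 1, where the median gene had 6. EDC4, PATL1, LSM14A and XRN1 were not listed. These 4 were called lower in YTHDF1 RIP of that line, as was DCP2, which is listed. Among protein-coding genes in the members' range of input CPM, 96.5% of the 2977 called higher in that RIP were listed, 81.1% of the 2244 not called and 49.6% of the 4168 called lower.

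In input, YTHDF1, YTHDF2 and YTHDF3 RIP of YTHDF1-ADAR cells, the editing level of DDX6 was 2.03%, 2.49%, 2.50% and 2.39%. That of PAN3 was 3.66%, 4.62%, 5.47% and 3.52%, the highest of the members in each kind of library. That of DCP2 was 1.34%, 2.60%, 1.95% and 1.87% and that of EDC3 0.714%, 1.33%, 1.32% and 1.20%, both lowest in input. DCP1A had 2.31%, 0.611%, 1.62% and 1.60%, highest in input, over few sites. The single site of DCP1B had 0%, 1.29%, 0% and 3.30%. The medians of the 7800 listed genes with all 4 values were 2.50%, 3.71%, 3.39% and 3.18%, so DCP2, EDC3 and DDX6 lay below the median in each kind of library and PAN3 above it. Of the 6, 0 passed an adjusted p of 0.05 in any RIP in the authors' deposited tables, with the lowest at 0.154 for DCP2 in YTHDF1 RIP. Of all listed genes 8.12%, 1.63% and 1.12% passed it in YTHDF1, YTHDF2 and YTHDF3 RIP. An unadjusted p is not in these tables, and no other test was run because the values are pooled.

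In the other lines the listed members rested on 1 or 2 sites. In YTHDF2-ADAR cells, in the order input, YTHDF1, YTHDF2 and YTHDF3 RIP, EDC3 had 1.17%, 0%, 0.663% and 0.776%, DCP2 0%, 0%, 0.551% and 0.454% and LSM14A 0.404%, 0%, 0.452% and 0.362%, beside medians of 0.942%, 0.505%, 0.928% and 1.19%. In YTHDF3-ADAR cells DCP2, with 2 sites, had 0.511%, 0%, 0.415% and 0.852% and DDX6 0.185%, 1.76%, 0% and 1.23%, beside 1.11%, 0.511%, 1.01% and 1.35%. None had an adjusted p under 0.05 in the authors' deposited tables. The share of all listed genes that did was 2.66%, 0.25% and 1.46% in YTHDF2-ADAR cells and 2.92%, 0.102% and 1.83% in YTHDF3-ADAR cells. DCP2 was thus the 1 member listed in all 3 lines.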

How the data were processed

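RNA from HEK293T inputs and YTHDF RIPs was sequenced in 36 libraries of 12 groups, which the labels assign. The authors deposited 1 table of raw counts of read pairs per gene, made with featureCounts 2.0.1 on Ensembl annotation of GRCh38, per the file headers, with reads given to every overlapping gene, multimapping reads counted and strand not used. STAR 2.7.7 and DESeq2 are named in the submitters' processing notes. Reads that map to several places can thus count for more than 1 gene, and counts of overlapping genes are not independent. The authors' DESeq2 table holds a deposited baseMean signal (mean normalized counts), log2 fold changes and adjusted p-values, per the file headers. The authors' editing tables hold a score per gene with replicates pooled, a number of sites, a fold change that the deposited values show to be the natural log of an odds ratio of score over sites (matched within 1e-06), and adjusted p-values. How the score was made is not given in the sources used here.

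Counts were scaled by TMM, filtered by filterByExpr (31849 of 60675 genes tested, with 1 entry that is no gene of the cells left out) and fitted by edgeR 4.0.16 (R 4.3.3, limma 3.58.1) in 1 quasi-likelihood model of 12 groups, whose spread is shared. Adjusted p-values are Benjamini-Hochberg over all genes tested, with 0.05 as the limit. Standard errors are the fold change over the root of its F statistic, and 95% intervals take the normal multiple of them. DESeq2 1.42.0 was an alternative, with other scalings, no filter, a replicate block and libraries left out. Libraries left out singly were run with scaling recomputed, as planned, and with scaling kept. The method was tested on simulated counts made from the YTHDF2 RIP and input of YTHDF2-ADAR cells, where it recovered 141 of 200 genes changed by 1 on the log2 scale, with 5 false calls, over 31849 genes. No 2 libraries of a group agreed within sampling noise (lowest mean chi-square per gene 8.68). In YTHDF1-ADAR cells input replicate 1 was at 207 and 182 against the other inputs, which were at 25.8 with each other. YTHDF2 RIP replicate 3 of that line was at 106 and 139, with the other pair at 36.8. An alternative setting leaves out these 2 libraries together. High values were also seen elsewhere, as 188 between replicates 2 and 3 of YTHDF1 RIP in YTHDF3-ADAR cells.

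The members and the lists were chosen with earlier results of these data known. All 10 members are named. Of each further list at most 2 genes per comparison, those with the smallest p, are named in YTHDF1 RIP of YTHDF1-ADAR cells and in YTHDF2 and YTHDF3 RIP of YTHDF2-ADAR cells, and 1 gene that this rule names is not reported here. Likeness names the 5 genes of highest r to the members' mean profile, each member centred first.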

Additional observations from a re-analysis of the deposited data

Results flagged for a closer look

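The enrichment of 7 members in YTHDF1 RIP differed between the 3 lines by edgeR's interaction test over all genes, which also called 63.7% of all genes. The log2 fold changes over input in YTHDF1-ADAR, then YTHDF2-ADAR, then YTHDF3-ADAR cells were 0.56, -1.50 and -1.56 for the helicase DDX6 (adjusted p = 4.4e-08) and 1.04, 0.079 and -0.064 for the deadenylase adaptor PAN3 (adjusted p = 3.36e-06). They were 1.16, -0.13 and -0.20 for DCP1B (adjusted p = 2.72e-05) and -0.0090, -0.85 and -0.69 for DCP1A (adjusted p = 0.000106), the activators of decapping. EDC3 had 0.22, -0.64 and -0.74 (adjusted p = 0.000142), and the decapping enzyme DCP2 -0.95, -1.66 and -1.68 (adjusted p = 0.00924). XRN1 had -0.58, -0.047 and 0.18 (adjusted p = 0.0304). It lost the call with another TMM reference library (adjusted p = 0.386), with no filter on low counts (0.0561), on the mitochondrial scale (0.372) and without YTHDF1-ADAR input replicate 1 and YTHDF2 RIP replicate 3 (0.257). The XRN1 call was also lost in 16 of the 18 fits without 1 library when scaling and gene set were recomputed. On the mitochondrial scale 2 members were called. The YTHDF1 RIP libraries of YTHDF2-ADAR and YTHDF3-ADAR cells are the 6 with 0.697 to 4.35% of counts in small nucleolar RNAs, against at most 0.564% in the other 30 libraries, so that line and library composition cannot be told apart.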

How the results depend on the processing

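Of the 55 calls of members in RIP against input, 54 held with DESeq2, 53 with RLE scaling, 50 with another TMM reference library, 50 with no filter on low counts, 49 with total-count scaling, 48 with only the 2 groups compared, 48 without YTHDF1-ADAR input replicate 1 and YTHDF2 RIP replicate 3, and 26 on the mitochondrial mRNA scale. Of the 41 calls that do not use them, 38 held without the 6 YTHDF1 RIP libraries that stood apart. 35 of 55 held without any single library when scaling and gene set were recomputed, and 42 when both were kept. The cause of these losses was not tested. The other TMM reference and the fits that keep the scaling were chosen after seeing the data. Taken over all lines, replicate numbers did not pair the libraries (4 of 27 same-number correlations were above 0.1, from -0.395 to 0.327, and 11 were best with their own number). In YTHDF3-ADAR cells most RIP libraries were best with the input of their own number, though the correlations there were low (-0.0264 to 0.133). With the replicate block 55 of 55 calls held. It changed 2 calls, DCP1B in YTHDF3 RIP of YTHDF2-ADAR cells (-0.44) and EDC4 in YTHDF2 against YTHDF3 RIP of YTHDF1-ADAR cells (0.46), and no other.

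Values that changed sign in RIP against input were, for DCP1A in YTHDF1 RIP of YTHDF1-ADAR cells, 0.019 without the 6 libraries, 0.13 with DESeq2, 0.13 with RLE, 0.026 with the other reference, 0.10 with the 2 groups and 0.17 with total counts. In YTHDF1 RIP of YTHDF2-ADAR cells, DCP1B was 0.017 with DESeq2, 0.018 with RLE and 0.40 with total counts. XRN1 was there 0.10 with DESeq2 and with RLE, 0.025 with the 2 groups and 0.47 with total counts. PAN3 was there -0.22 with the other reference, -0.24 without the 2 libraries of YTHDF1-ADAR cells, -0.044 with no filter and -0.66 on the mitochondrial scale. In YTHDF1 RIP of YTHDF3-ADAR cells, PAN3 was 0.10 with DESeq2, 0.10 with RLE, 0.0027 with the 2 groups and 0.27 with total counts. XRN1 was there -0.12 with the other reference, -0.13 without the 2 libraries and -1.39 on the mitochondrial scale, and DCP1B 0.13 with total counts. Without the 2 libraries XRN1 was -0.11 in YTHDF2 RIP and DDX6 -0.040 in YTHDF3 RIP of YTHDF1-ADAR cells. With total counts DCP1B was 0.15 and PATL1 0.12 in YTHDF2 RIP, and EDC4 0.15 in YTHDF3 RIP, of YTHDF3-ADAR cells. On the mitochondrial scale YTHDF1 RIP of YTHDF1-ADAR cells gave -0.41 for DDX6, -0.86 for EDC3 and -0.027 for PAN3. YTHDF2 RIP gave 0.24 for DCP1B, 0.029 for LSM14A and 0.14 for PATL1 in YTHDF1-ADAR cells, and 0.036, 0.17 and 0.0084 in YTHDF2-ADAR cells. YTHDF3 RIP gave 0.22 for DCP1B in YTHDF2-ADAR cells and 0.33 for EDC4 in YTHDF3-ADAR cells. Between RIPs of YTHDF1-ADAR cells DCP1B was -0.13 and PAN3 -0.74 in YTHDF1 against YTHDF2 RIP, and -0.41 and -0.87 against YTHDF3 RIP. EDC4 was -0.035 in YTHDF2 against YTHDF3 RIP of YTHDF3-ADAR cells.

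The number of members called moved on the mitochondrial scale to 0 in YTHDF2 against YTHDF3 RIP of each line, 1, 0 and 0 in YTHDF2 RIP of YTHDF1-ADAR, then YTHDF2-ADAR, then YTHDF3-ADAR cells, 1 in YTHDF3 RIP of YTHDF1-ADAR and of YTHDF3-ADAR cells, 1 between YTHDF1-ADAR and YTHDF2-ADAR inputs, and 2 for differences between lines in YTHDF1 RIP. Between those inputs it moved to 3 with DESeq2, RLE, the other reference, no filter and the 6 libraries left out. In YTHDF2 RIP it moved to 3 without the 2 libraries and 1 with the 2 groups in YTHDF1-ADAR cells, to 9 with the 2 groups in YTHDF2-ADAR cells, and to 2 with the other reference and 7 with total counts in YTHDF3-ADAR cells. Without the 2 libraries it moved to 5 in YTHDF2 against YTHDF3 RIP of YTHDF3-ADAR cells.

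Without single libraries the number called ran from 1 to 5, 2 to 5 and 0 to 3 in YTHDF2 against YTHDF3 RIP of YTHDF1-ADAR, then YTHDF2-ADAR, then YTHDF3-ADAR cells, from 2 to 5, 1 to 5 and 1 to 4 in YTHDF2 RIP, from 3 to 7 in YTHDF3 RIP of YTHDF2-ADAR cells, and from 0 to 3 and 0 to 1 between YTHDF1-ADAR inputs and those of YTHDF2-ADAR and YTHDF3-ADAR cells. Fold changes that took both signs were, in YTHDF1 RIP, DCP1A in YTHDF1-ADAR cells (-0.16 to 0.12), PAN3 (-0.29 to 0.13) and XRN1 (-0.40 to 0.015) in YTHDF2-ADAR cells, and PAN3 (-0.49 to 0.034) and XRN1 (-0.24 to 0.29) in YTHDF3-ADAR cells. In YTHDF2 RIP they were PAN3 (-0.0075 to 0.20) and XRN1 (-0.080 to 0.22) in YTHDF1-ADAR, XRN1 (-0.0041 to 0.28) in YTHDF2-ADAR, and DCP1B (-0.19 to 0.040) and PATL1 (-0.20 to 0.0055) in YTHDF3-ADAR cells. In YTHDF3 RIP they were DDX6 (-0.069 to 0.45 and -0.057 to 0.33 in YTHDF1-ADAR and YTHDF2-ADAR cells), EDC4 (-0.066 to 0.30, -0.048 to 0.17 and -0.27 to 0.0031 in YTHDF1-ADAR, then YTHDF2-ADAR, then YTHDF3-ADAR cells) and DCP1B in YTHDF3-ADAR cells (-0.091 to 0.21). DESeq2 was not run for differences between lines. DCP1B had the fewest reads, and counting error is largest for it.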
